A study of Arabidopsis thaliana with 18 samples.

Results

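Glucosinolates are sulphur-containing defence compounds of cabbage relatives such as *Arabidopsis thaliana*, and myrosinases are the enzymes that break them down when tissue is damaged. The 10 genes described here cover that route from regulator to hydrolysis: *MYB28* (AT5G61420), *BCAT4* (AT3G19710), *MAM1* (AT5G23010), *CYP79F1* (AT1G16410), *CYP83A1* (AT4G13770), *CYP79B2* (AT4G39950), *CYP83B1* (AT4G31500), *SUR1* (AT2G20610), *TGG1* (AT5G26000) and *TGG2* (AT5G25980). They were chosen by locus, as 10 of the 27444 coding genes of the annotation, of which 14383 had a TIF-cluster in at least 1 list. A TIF-cluster is a group of sequenced molecules that begin near the same transcription start site (TSS) and end near the same polyadenylation site (PAS). Transcript isoform sequencing (TIF-seq) reads both ends of the same capped and polyadenylated RNA. Every cluster on the strand of a member that overlapped its annotated span was used, which gave 279 TIF-clusters with 8336 read pairs over the 6 lists, and none of them touched a second coding gene on that strand.

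Aliphatic glucosinolates are made from methionine whose side chain is first lengthened, and indole glucosinolates are made from tryptophan. In both branches a CYP79 enzyme turns the amino acid into an aldoxime, a CYP83 enzyme oxidises the aldoxime, and SUR1 cleaves the sulphur-linked intermediate to a thiohydroximate before a glucose and a sulphate are added. Myrosinases are stored in guard cells and in specialised myrosin cells, apart from their substrates, and the released products deter herbivores and microbes.

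The plants were seedlings of the Columbia accession Col-0 aged 14 days, grown on medium with 1% sucrose under 16 h of light at 22 °C and 8 h of dark at 18 °C. At 22 °C there were 4 groups, named wild type, *hen2-2*, *ssrp1-2* and *spt16-1*, and the first pair of genotypes was also harvested after 3 h at 4 °C. HEN2 is an RNA helicase that feeds nuclear RNA to the exosome for degradation, and SPT16 and SSRP1 are the subunits of the histone chaperone FACT. Each group is 1 list that pools 2 replicate libraries, so the spread between replicates cannot be had, no test was run, and each interval given is a 95% interval that covers counting error only. The lists held from 31998 to 49901 TIF-clusters and from 410655 (*hen2-2* at 4 °C) to 924907 read pairs (*spt16-1*), and levels are given as RPM, the read pairs of a gene per 1000000 read pairs of its list. A list holds no cluster under 3 read pairs, which equals 3.24 to 7.31 RPM, so a gene without a cluster may still have been transcribed. Whole seedlings were used, so fewer cells of a type and less RNA per cell cannot be told apart. Read pairs count molecules of any length and were not divided by length.

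The sites where these genes start carry much of what follows, so the bases just upstream of the most used TSS are shown for the 3 members with the most read pairs and for *SUR1*. The most used TSS is the 5′ end with the most read pairs over the 6 lists among full-length TIF-clusters, defined here as those that span the coding sequence of the first annotated isoform with a tolerance of 20 nt at each end. The window of 30 bases ends 15 bases upstream of it, is written 5′ to 3′ on the gene strand, and has each TATAAA or TATATA in capitals.
TGG1, chr5:9082392-9082421, minus strand: acaaaggcTATATAAAccctagattggcac
TGG2, chr5:9072692-9072721, plus strand: caaaggcTATATAAAccctagattggcaca
CYP83A1, chr4:7992327-7992356, minus strand: agtccaTATATAattctTATATAttaagga
SUR1, chr2:8880313-8880342, minus strand: tttggccttcttatagaaagaagaactcaa
Of the 9 members with a full-length TIF-cluster, 8 held TATAAA or TATATA on the gene strand in this window, as did 25.2% of the 14000 coding genes with such a cluster, and on either strand the counts were 8 members and 28.2% of genes. *SUR1* was the member without it, but its window rests on 4 read pairs of 1 *hen2-2* cluster, listed at the first coding base (8880298). Its wild-type clusters began further upstream, at 8880344 and 8880337, and the bases upstream of these were not read. In the 8 promoters the motif began 32 to 38 nt upstream of the listed TSS. In a longer window of 60 bases, *TGG1* and *TGG2* share 1 unbroken run of 30 bases that begins 44 nt upstream of the TSS in *TGG1* and 45 nt in *TGG2*. The hexamer CACGTG, searched from 250 bases before to 50 bases after the annotated gene start, was present in *CYP83A1* and *SUR1* only, 2 of 10 members against 7.68% of all coding genes. Sequence matches are a description and not evidence of binding.

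The listed ends are best read with a margin of a few bases. Over wild-type clusters of at least 10 read pairs at 22 °C, a pyrimidine followed by a purine, the usual dinucleotide at a start site, stood at 46.5% of plus-strand and 46.8% of minus-strand clusters when read 6 nt upstream of the listed 5′ end, against 21.6% and 22.6% at the listed end itself. At the 3′ end of the same clusters, CA or TA was most frequent when read 7 nt downstream of the listed end. It stood there at 26.8% of plus-strand and 25.5% of minus-strand clusters, against 13.2% and 13.6% at the listed end. Positions, windows and distances to exon borders are given from the listed ends, on TAIR10.

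At the other end of the transcripts, the 30 bases up to the most used PAS held AATAAA, the classical polyadenylation signal, in 4 of the 9 members (*CYP79F1*, *CYP79B2*, *SUR1* and *TGG1*), and in 9.15% of the 14000 genes on the gene strand. For *TGG2* this PAS rests mostly on 1 *ssrp1-2* cluster of 641 read pairs. The main end of *TGG2* lay 72 to 82 nt before the first-isoform end in both cold lists and *spt16-1*. It lay 8 nt before it in wild type, 29 in *hen2-2* and 11 in *ssrp1-2*. Only the PAS with the most read pairs over all lists was searched. At that PAS the myrosinase pair differed, as their windows show with the signal in capitals.
TGG1, chr5:9079527-9079556, minus strand: aataatAATAAAgactttgtttactacatt
TGG2, chr5:9075650-9075679, plus strand: aaattgaactaaactcgaaatgcttagttg

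*MYB28* (chr5:24689069-24691187, minus strand), the R2R3-MYB factor that switches on the aliphatic branch, had no TIF-cluster of 3 or more read pairs in any of the 6 lists. Its relative *MYB29* had 4 read pairs in *hen2-2* at 22 °C and 3 in *spt16-1*, and *MYB76* had none. Transcripts of these regulators were thus at or under the limit of the lists, and no difference between groups can be read for them.

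The enzymes of methionine chain elongation were both listed in every group, at unlike levels. *BCAT4* (chr3:6846969-6849582, minus strand, 9 exons in the first isoform), the aminotransferase that opens the cycle, stood at 146 RPM (interval 121 to 174) in wild type and 193 (161 to 228) in the cold. In *hen2-2* it stood at 296 (259 to 336) and at 131 (98.8 to 172) in the cold. The value was 209 (180 to 240) in *spt16-1* and 354 (312 to 401) in *ssrp1-2*. The 2 high lists, *hen2-2* at 22 °C and *ssrp1-2*, overlap each other within counting error and lie above the other lists.

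*MAM1* (chr5:7703041-7706973, plus strand, 10 exons), the synthase that condenses the elongating chain with acetyl-CoA, was the least abundant of the members listed in all groups in wild type, with 8 read pairs or 9.49 RPM (4.10 to 18.7). It stood at 42.0 (28.1 to 60.3) in wild type at 4 °C, 51.1 (31.7 to 78.2) in *hen2-2* at 4 °C, 36.8 (25.5 to 51.4) in *spt16-1* and 58.1 (41.7 to 78.9) in *ssrp1-2*. In *hen2-2* at 22 °C the level was 290 (253 to 330). That high value rests on 1 TIF-cluster with 204 of the 230 read pairs, and the other clusters of *MAM1* in this list held 26 read pairs, or 32.7 RPM. The 204 read pairs were listed with a PAS 49 nt beyond the annotated end of the first isoform. The neighbouring gene *MAM3*, of the same enzyme family, ranged from no cluster to 18.4 RPM.

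In the core of the aliphatic branch, *CYP83A1* (chr4:7990429-7992429, minus strand, 2 exons) had the narrowest range of levels. It stood at 496 RPM (449 to 546) in wild type, 514 (462 to 571) in wild type at 4 °C, 546 (496 to 600) in *hen2-2*, 550 (481 to 627) in *hen2-2* at 4 °C, 545 (498 to 595) in *spt16-1* and 648 (590 to 710) in *ssrp1-2*. The highest list was 1.31 times the lowest, the smallest such ratio among the 8 members listed in every group. This holds for the sum of its clusters, and without the largest cluster of each list the others ran from 198 RPM in wild type to 449 in *ssrp1-2*.

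*CYP79F1* (chr1:5608682-5612064, plus strand, 3 exons), which makes the aldoximes of chain-elongated methionine, was highest in wild type at 22 °C with 224 RPM (193 to 259). It stood at 126 (101 to 155) in wild type at 4 °C, 137 (113 to 166) in *hen2-2*, 173 (135 to 218) in *hen2-2* at 4 °C, 147 (123 to 174) in *spt16-1* and 78.0 (58.8 to 102) in *ssrp1-2*. *CYP79F2*, its tandem copy, was lower, from 20.3 RPM in wild type at 4 °C to 70.9 in *ssrp1-2*. Inside a list, a ratio of 2 genes is free of the scaling, and *CYP79F1* over *CYP79F2* was 7.27 (4.81 to 11.4) in wild type, 2.78 (1.99 to 3.93) in *spt16-1* and 55 to 50 read pairs (a ratio interval of 0.736 to 1.65) in *ssrp1-2*. The intervals of both FACT mutants lay below that of wild type. Only reads that aligned to 1 place were kept, so near-identical stretches of such copies could lose or misplace reads, and their part in these ratios was not tested.

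In the indole branch, *CYP79B2* (chr4:18525042-18527602, plus strand, 2 exons), which makes indole-3-acetaldoxime from tryptophan, stood at 94.9 RPM (75.2 to 118) in wild type and 71.0 (52.5 to 93.9) in the cold. It stood at 155 (129 to 185) in *hen2-2* and at 14.6 (5.36 to 31.8), from 6 read pairs in a single cluster, in *hen2-2* at 4 °C. The levels in *spt16-1* and *ssrp1-2* were 23.8 (14.9 to 36.0) and 86.5 (66.2 to 111). The low lists were thus *hen2-2* at 4 °C and *spt16-1*, whose intervals overlap. *CYP79B3*, the second enzyme of this step, was listed at 3.24 to 15.9 RPM.

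*CYP83B1* (chr4:15273410-15275404, minus strand, 2 exons), which takes indole-3-acetaldoxime onward into glucosinolates, varied less. It stood at 135 RPM (112 to 162) in wild type, 219 (185 to 257) in wild type at 4 °C, 145 (120 to 174) in *hen2-2*, 153 (118 to 196) in *hen2-2* at 4 °C, 186 (159 to 216) in *spt16-1* and 206 (173 to 242) in *ssrp1-2*. *CYP83A1* exceeded it in every list, by 2.35 times (1.94 to 2.86) in wild type at 4 °C to 3.77 times (3.07 to 4.68) in *hen2-2* at 22 °C.

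*SUR1* (chr2:8877887-8880440, minus strand, 7 exons), the C-S lyase that serves both branches, was at the limit of the lists. It had 6 read pairs in wild type (7.12 RPM, 2.61 to 15.5) and 4 in *hen2-2* at 22 °C (5.04 RPM, 1.37 to 12.9). No cluster of it was listed in the other 4 lists. No comparison was made for *SUR1* or *MYB28*, because both had fewer than 20 read pairs in each pair of lists.

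**Figure D1:**
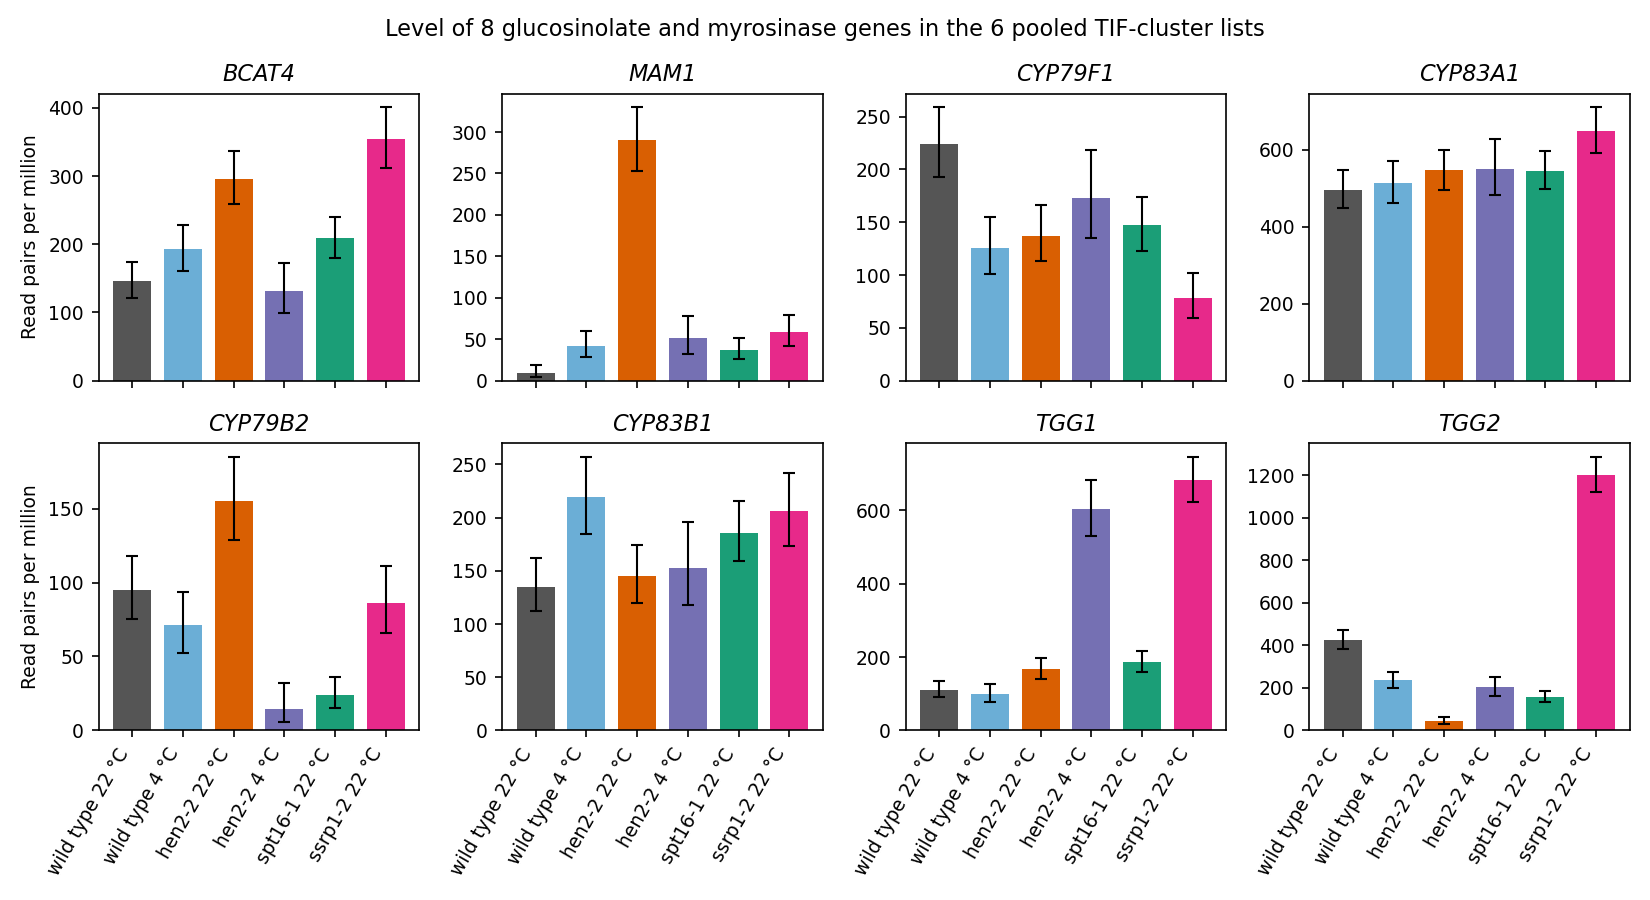
RPM (vertical axis, from 0, with its own range in each panel) of the 8 members listed in every group, by pooled list. Bars are 1 pooled list each and error lines are exact Poisson 95% intervals; *CYP83A1* is nearly level across lists, at 496 to 648, whereas *TGG2* runs from 45.3 to 1201.

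The myrosinase genes lie close together on opposite strands, *TGG1* at chr5:9079452-9082384 (minus strand) and *TGG2* at chr5:9072708-9075777 (plus strand), each with 12 exons in the first isoform, and varied most in absolute level. *TGG1* stood at 111 RPM (90.1 to 136) in wild type, and its 69 read pairs in wild type at 4 °C gave an interval of 77.8 to 127. It stood at 167 (140 to 198) in *hen2-2* and 604 (531 to 684) in *hen2-2* at 4 °C. In *spt16-1* it stood at 187 (160 to 217), and in *ssrp1-2* at 682 (622 to 746). The lists of *hen2-2* at 4 °C and *ssrp1-2* thus lay far above the other 4.

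*TGG2* followed another order. It stood at 426 RPM (383 to 472) in wild type and 235 (200 to 274) in wild type at 4 °C. It stood at 45.3 (31.7 to 62.7) in *hen2-2* and 205 (163 to 253) in *hen2-2* at 4 °C. In *spt16-1* it stood at 159 (134 to 187), and in *ssrp1-2* at 1201 (1121 to 1285), the highest value of any member in any list. Of the 847 read pairs behind the last value, 641 came from 1 TIF-cluster, and the others made up 292 RPM against 215 for the others in wild type.

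Set against each other within a list, the pair changed order. *TGG2* over *TGG1* was 3.82 (3.04 to 4.85) in wild type and 2.35 (1.76 to 3.16) in wild type at 4 °C. It was 0.271 (0.182 to 0.394) in *hen2-2* and 0.339 (0.261 to 0.435) in *hen2-2* at 4 °C. It was 0.850 (0.677 to 1.06) in *spt16-1* and 1.76 (1.57 to 1.97) in *ssrp1-2*. *TGG2* therefore led in both wild-type lists and in *ssrp1-2*, *TGG1* led in both *hen2-2* lists, and the order in *spt16-1* could not be told from equal. Over the first annotated isoforms, 7 of the 12 exons have equal length in both genes and are identical at 640 of 756 bases (84.7%).

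**Figure D2:**
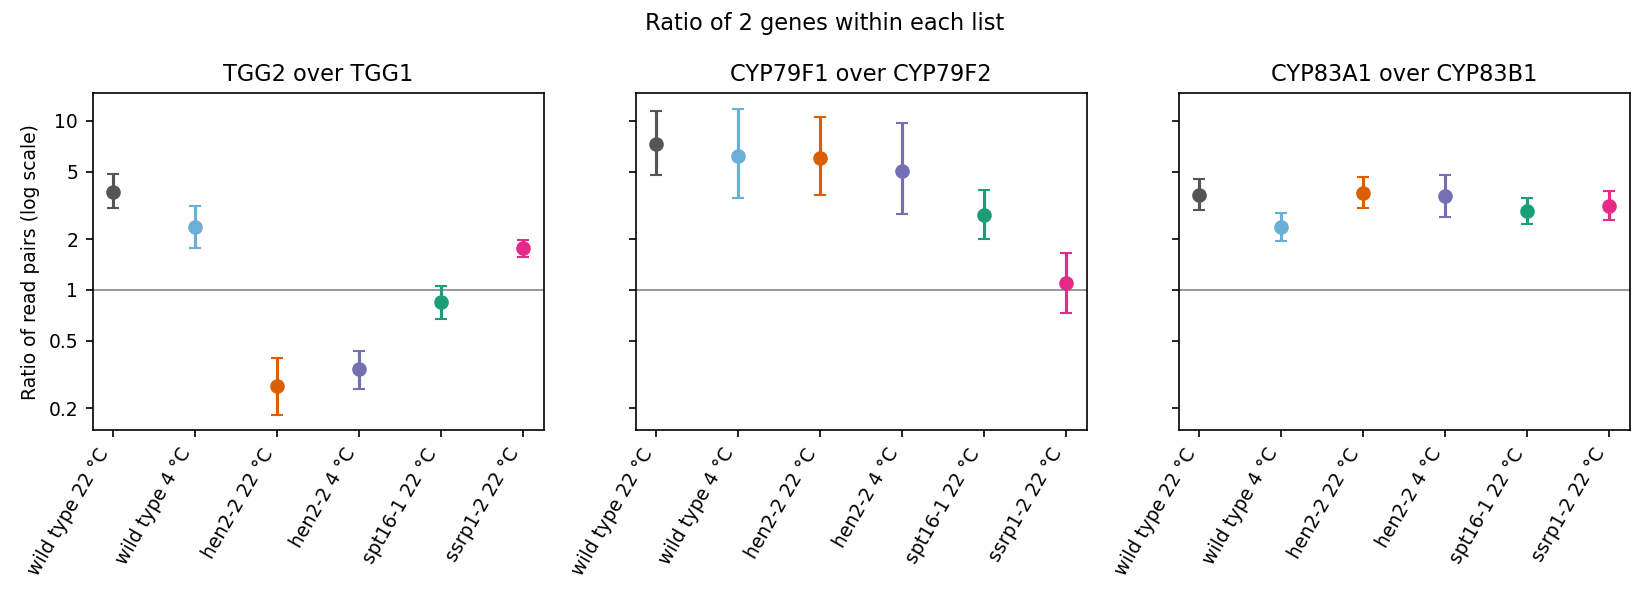
Ratio of the read pairs of 2 genes in the same list (vertical axis, log scale; 1 means equal), with exact 95% counting intervals, for 3 gene pairs across the 6 pooled lists. *TGG2* over *TGG1* crosses 1, from 3.82 in wild type to 0.271 in *hen2-2*, while *CYP83A1* over *CYP83B1* stays between 2.35 and 3.77.

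Markers of the cells that store myrosinase were near the limit of the lists. The 4 guard and myrosin cell markers (*FAMA*, *KAT1*, *MYB60*, *SLAC1*) summed to 19.0 RPM in wild type, 29.0 in wild type at 4 °C, 5.04 and 9.74 in *hen2-2* at 22 and 4 °C, 42.2 in *spt16-1* and 14.2 in *ssrp1-2*. All 4 were listed in *spt16-1* only, and *FAMA*, a regulator of guard and myrosin cell identity, was listed in wild type at 4 °C and *spt16-1* with 3 read pairs each. Their part in the myrosinase levels was not tested. The 5 leaf photosynthesis markers were listed in every group and summed to between 8993 (*ssrp1-2*) and 17238 RPM (*hen2-2* at 4 °C). Of the 5 root markers, 4 were listed in every group and *NRT2.1* in none, with sums of 3487 to 5308 RPM, nearly all from *PYK10*. Single markers moved in the FACT mutants, where the root endodermis gene *CASP1* was 2.66-fold lower in *spt16-1* and 2.71-fold lower in *ssrp1-2*. The root aquaporin gene *TIP2;3* was 2.34-fold lower in *spt16-1*, where *EXPA7*, a root hair gene, had 7 against 14 read pairs. Of the leaf markers, *RBCS1A* was 2.16-fold lower in *spt16-1* and 3.23-fold lower in *ssrp1-2*, *LHCB1.1* was 2.03-fold lower in *ssrp1-2*, and *RBCS1A* was also 3.50-fold lower in the cold in wild type and 6.52-fold higher in *hen2-2* than in wild type at 4 °C. Their part in the differences of the members was not tested. Of 5 cold response genes, *CBF2* and *CBF3*, which respond first, were listed only at 4 °C, *CBF2* at 1505 RPM in wild type and 1595 in *hen2-2*. The later gene *COR15A* had log2 ratios in the cold of 0.09 in wild type and 1.25 in *hen2-2*, *KIN1* had -3.92 (3 against 64 read pairs) and -0.02, and *COR27* had at most 13 read pairs in a list. *HEN2*, *SPT16* and *SSRP1* had at most 31 read pairs in a list. *SPT16* had 31 in *spt16-1* against 30 in wild type, a log2 ratio of -0.09 (-0.86 to 0.69). *HEN2* in *hen2-2* and *SSRP1* in *ssrp1-2* had no cluster, against 4 and 5 read pairs in wild type, too few to compare. These few read pairs do not check the mutants.

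Cold was compared in wild type first. Members with at least 20 read pairs in the pair of lists numbered 8, and 1 of them was at least 2-fold higher at 4 °C, where 14.6% of the 6841 coding genes were, and 0 were at least 2-fold lower, where 11.9% were. The higher one was *MAM1*, with 29 against 8 read pairs and a log2 ratio of 2.08 (0.98 to 3.49). *TGG2* and *CYP79F1* were lower by less than 2-fold, with log2 ratios of -0.86 (-1.14 to -0.59) and -0.83 (-1.21 to -0.46). *CYP83B1* was 1.62-fold higher. The median log2 ratio of the members was -0.05, and that of all genes was 0.06.

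In *hen2-2* more members were past 2-fold after the same treatment. At least 2-fold higher were 2 of 8 members, against 9.55% of 6178 genes, and at least 2-fold lower were 3, against 19.0%. Both myrosinases were higher, *TGG1* with a log2 ratio of 1.85 (1.54 to 2.17) and *TGG2* with 2.16 (1.59 to 2.78). *CYP79B2* was lower by a log2 ratio of -3.30 (-4.88 to -2.24), from 123 to 6 read pairs. *MAM1* followed with -2.47 (-3.22 to -1.85) and *BCAT4* with -1.16 (-1.62 to -0.74). Without the largest cluster of each list the log2 ratio of *MAM1* was -0.87, within 2-fold. The *hen2-2* list at 4 °C is the shallowest of the 6, and the median log2 ratio of all genes was -0.20 here.

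**Figure D3:**
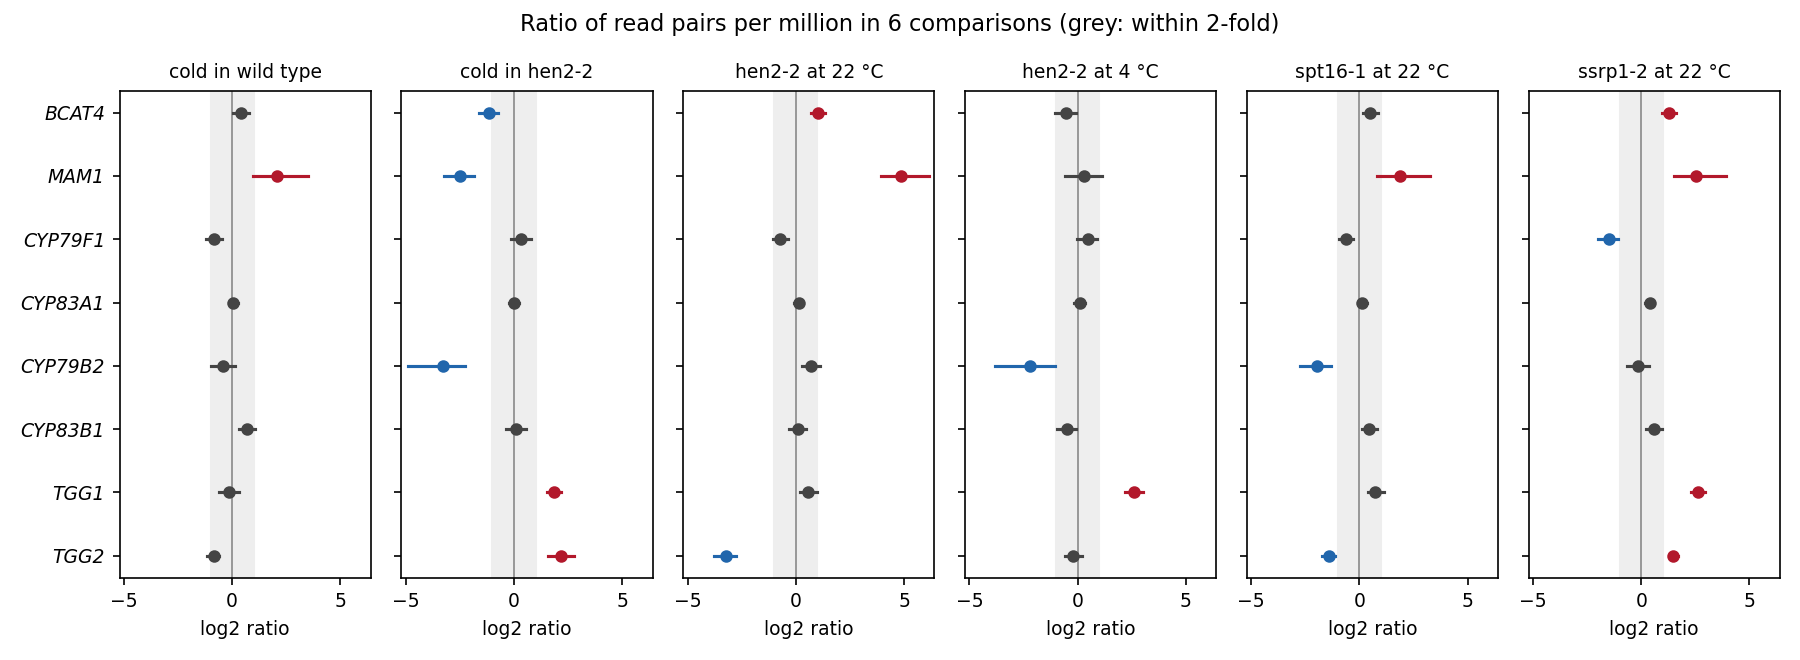
Log2 ratio of RPM (horizontal axis; first-named condition over its reference) of 8 members in 6 comparisons, with exact 95% counting intervals as lines. Red marks at least 2-fold higher, blue at least 2-fold lower and the grey band less than 2-fold; the 4 comparisons with wild type at 22 °C share that list, and *TGG2* lies on opposite sides of 0 in the cold panels, at -0.86 in wild type and 2.16 in *hen2-2*.

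Loss of HEN2 was compared at each temperature. At 22 °C, 2 of 8 members were at least 2-fold higher in *hen2-2* than in wild type, against 12.8% of 7167 genes, and 1 was at least 2-fold lower, against 9.08%. *MAM1* was higher by a log2 ratio of 4.85 (3.93 to 6.16), mostly through the single cluster described above. *BCAT4* was at 1.02 (0.70 to 1.35), just past 2-fold, and at 0.96 when lists were scaled by the median ratio of well-covered genes. *TGG2* was 9.39-fold lower, a log2 ratio of -3.21 (-3.77 to -2.74). At 4 °C, 1 of 8 members was at least 2-fold higher, against 8.36% of 5682 genes, and 1 was at least 2-fold lower, against 17.7%. These were *TGG1*, 6.04-fold higher, and *CYP79B2*, 4.86-fold lower from 6 against 49 read pairs. *TGG2* had a log2 ratio of -0.19 (-0.60 to 0.19) at 4 °C, and of -1.55 without the largest cluster of each list, from 22 against 110 read pairs.

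In the FACT mutants the members moved apart. In *spt16-1*, 1 of 8 was at least 2-fold higher than wild type, against 14.1% of 7381 genes, and 2 were at least 2-fold lower, against 8.28%. *MAM1* was higher, with a log2 ratio of 1.89 (0.82 to 3.28). *CYP79B2* was 3.99-fold lower and *TGG2* 2.68-fold lower, with log2 ratios of -1.97 (-2.75 to -1.30) and -1.42 (-1.71 to -1.14). In *ssrp1-2*, 4 of 8 were at least 2-fold higher, against 12.3% of 6820 genes, and 1 was at least 2-fold lower, against 11.4%. *TGG1* was 6.12-fold higher, *MAM1* 6.13-fold, *TGG2* 2.82-fold and *BCAT4* 2.43-fold, and *CYP79F1* was 2.87-fold lower. The log2 ratio of *MAM1* was 2.55, and was 1.95 with a cluster minimum of 5 read pairs and 1.66 with an equal minimum in RPM. That of *CYP79B2* in *spt16-1* was -2.71 with the equal minimum. The median log2 ratio of the members was 0.94 in *ssrp1-2* and 0.30 in *spt16-1*, against 0.08 and 0.11 for all genes. The sum over all members was 3314 RPM (3181 to 3451) in *ssrp1-2* and 1650 (1564 to 1739) in wild type, and *TGG1* with *TGG2* made up 1883 and 537 of these.

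Several of these ratios moved when the largest cluster of each list was left out, which could be done for 42 of them. It could not be done for *MAM1* against wild type at 22 °C or for *CYP79B2* with *hen2-2* at 4 °C. In those lists 1 cluster held all read pairs of the gene. The ratios left out for this reason were all past 2-fold, so how far they rest on 1 cluster was not measured. The largest cluster held an unlike share of a gene in each list. For *CYP83B1* it held 80.7% of read pairs in wild type and 45.7% in wild type at 4 °C. The removal thus takes unlike parts of a gene, and a moved ratio need not rest on 1 cluster. Of the 13 past 2-fold, 3 came within it, namely *MAM1* above and, in *ssrp1-2*, *TGG2* at a log2 ratio of 0.44 and *CYP79F1* at -0.94. Of the 29 within 2-fold, 11 passed it and 4 changed sign. *CYP83B1* passed it in 4 comparisons, at 2.16 for cold in wild type, 1.49 in *hen2-2* at 22 °C, 1.06 in *spt16-1* and 1.71 in *ssrp1-2*. *CYP83A1* did so at 1.01 for cold in wild type and, from 317 against 167 read pairs, in *ssrp1-2*, and *BCAT4* at 1.75 for cold in wild type and -2.34 in *hen2-2* at 4 °C. *CYP79F1* was at 1.15 in *hen2-2* at 4 °C and *TGG1* at 1.05 in *spt16-1*, and *TGG2* in *hen2-2* at 4 °C was given above. Among the sign changes, *BCAT4* in *spt16-1* went from 0.51 to -0.60 and *CYP79B2* in *ssrp1-2* from -0.13 to 0.81.

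Where the transcripts began and ended depends on which coding limits they are set against. Against the outer limits of the coding sequence over all isoforms, 154 of the 279 TIF-clusters (70.4% of read pairs) spanned the whole ORF, 116 started inside it and reached its end (29.2%), 6 started before it and ended inside, and 3 did both. Many internal starts by this rule were ordinary starts of genes with an extended annotated isoform. *MAM1* and *CYP79B2* had no whole-ORF cluster at all, because their second isoforms place the start codon 84 and 196 nt further upstream. *TGG2* had only 2, since its most used TSS was listed 6 nt inside the coding sequence. With the first isoform and a tolerance of 20 nt at both ends, 213 clusters with 96.0% of read pairs were full-length, 57 with 3.65% had an internal start, 8 with 0.336% an internal end, and 1 both. That tolerance was chosen after the data were seen, and it is used in what follows.

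The listed starts of full-length TIF-clusters lay within narrow windows. For the 8 members listed in every group, the central 90% of full-length read pairs had listed starts within 5 to 10 nt. The most used listed TSS of *TGG2* took 60.8% of its full-length read pairs and that of *CYP83A1* took 29.9%. Read pairs with both ends close together had been joined, and a TIF-cluster lists the same start for all of its read pairs. The spread of starts inside a cluster is thus hidden, so these widths and shares cannot show how narrowly single molecules began. The start was downstream of the annotated first-isoform start by 127 nt in *CYP79F1*, 117 in *CYP83A1*, 93 in *CYP83B1* and 91 in *BCAT4*, but by only 4 to 9 nt in *MAM1*, *CYP79B2*, *TGG1* and *TGG2*. The listed PAS, to which the same limit applies, was looser, with the central 90% spread over 15 nt in *TGG1* and over 123 nt in *MAM1*. *CYP83A1* used between 8 and 11 different ends per list.

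*CYP79F1* stood apart at its 3′ end. Every full-length cluster ended 669 to 826 nt before the annotated gene end at position 5612064 of chromosome 1, most often 737 nt before it and 209 nt past the stop of the longer coding sequence. A shorter form ended 1696 to 1705 nt from the gene start, inside the second intron of the first isoform. It was listed in *hen2-2* at 22 °C (4 read pairs) and in *ssrp1-2* (3 read pairs), each from the usual TSS, and once more in *ssrp1-2* from an internal start (3 read pairs). The coding sequence of the second annotated isoform, which ends at 5610244, lies within the short clusters from the usual TSS, but the isoform is annotated to run on to 5610769, beyond their ends.

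**Figure D4:**
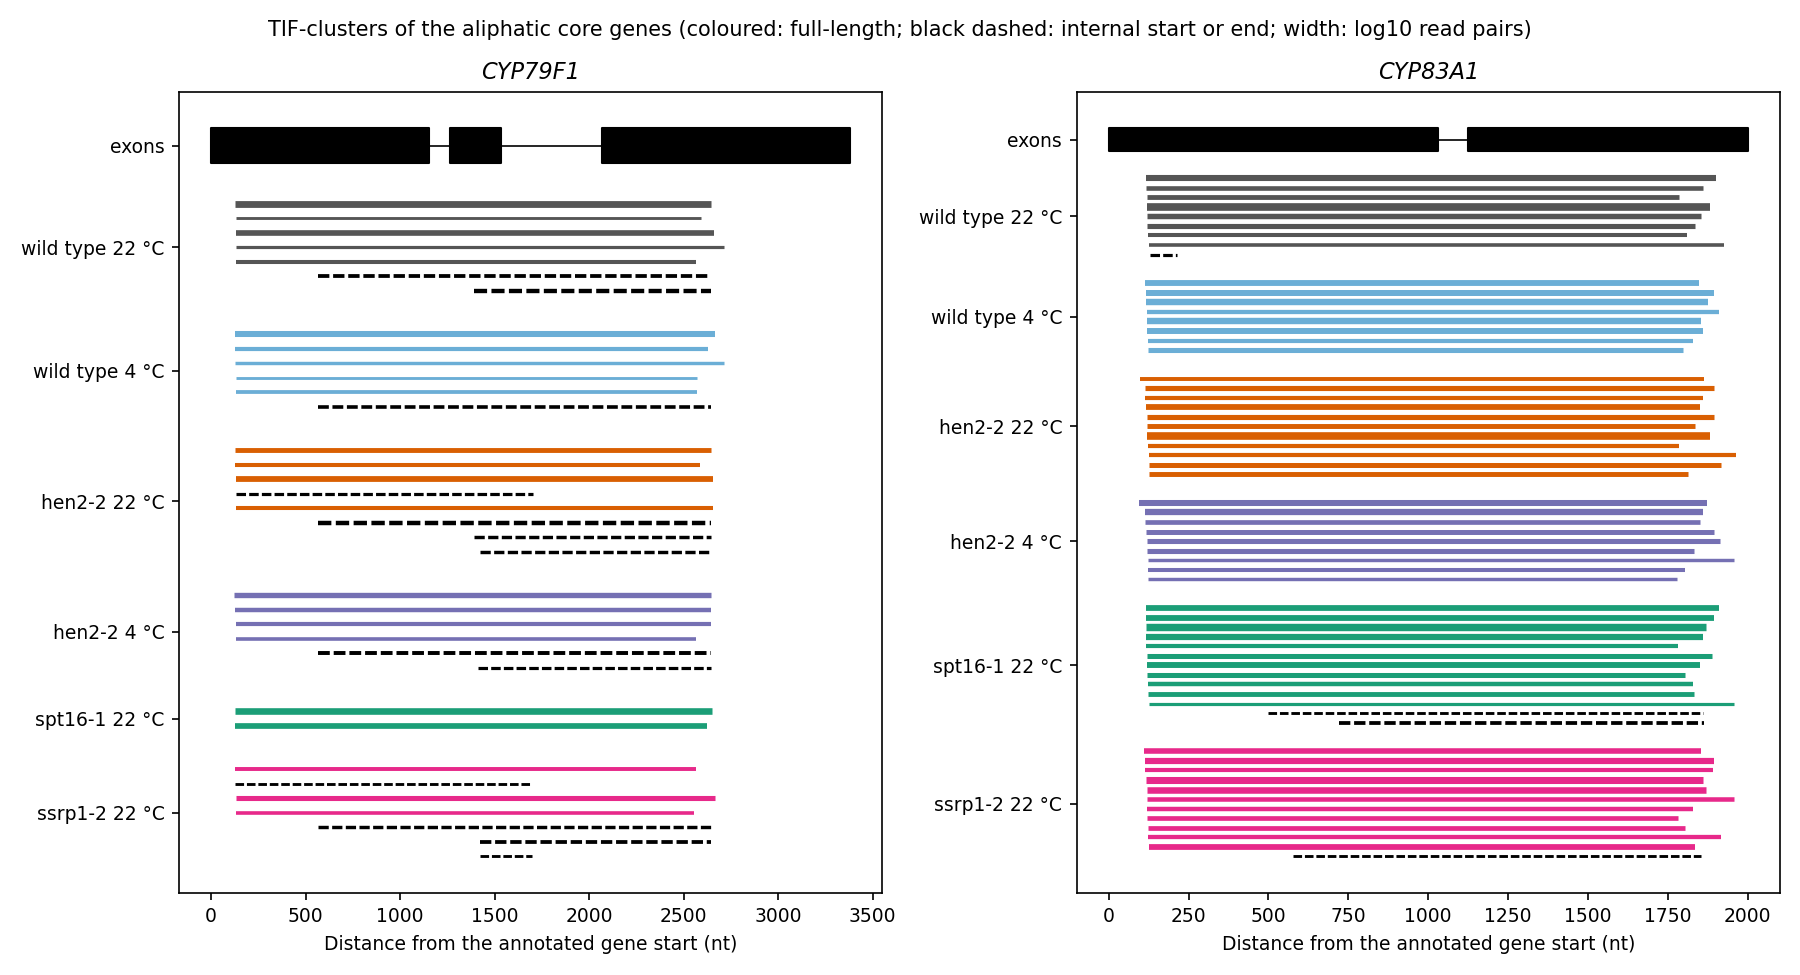
TIF-clusters of *CYP79F1* and *CYP83A1* in the 6 pooled lists, drawn as lines from listed start to listed end along the distance from the annotated gene start (nt, horizontal axis), under the exons of the first isoform. Coloured lines are full-length, black dashed lines have an internal start or end, and width grows with log10 read pairs; in *CYP79F1* the dashed lines begin near the same places in several lists.

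Among the members, internal starts were few in the CYP83 genes and most frequent in *CYP79F1*, *TGG1* and *TGG2*. They took 11.1% of all *CYP79F1* read pairs over the lists, 8.10% of *TGG1* and 6.85% of *TGG2*, against 1.93% in *MAM1*, 0.543% in *CYP83A1*, 0.395% in *CYP83B1* and 0 in *BCAT4* and *CYP79B2*. All coding genes had 5.41% to 8.78% per list, a range that holds the values of *TGG1* and *TGG2*. Per list the share over all members ran from 1.16% (0.600 to 2.02) in wild type at 4 °C to 5.91% (4.98 to 6.94) in *ssrp1-2*. By the same rule it was 6.25% and 5.41% over all coding genes in these lists. For the myrosinase pair it was 4.86% (3.07 to 7.26) in wild type, 16.0% (10.8 to 22.4) in *hen2-2*, 10.9% (7.74 to 14.9) in *spt16-1* and 8.96% (7.48 to 10.6) in *ssrp1-2*, whereas the cold lists gave 1.30% (0.269 to 3.75) in wild type and 0.904% (0.187 to 2.62) in *hen2-2*. Over all coding genes the share was 8.68% in wild type, 6.63% in *hen2-2*, 6.53% in *spt16-1* and 8.78% in *hen2-2* at 4 °C. The myrosinase pair was thus below all genes in wild type and both cold lists and above them in *hen2-2* and the FACT mutants at 22 °C. Internal clusters are small, so the minimum of 3 read pairs hides more of them in shallow lists and at low levels.

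When starts within 20 nt of the next were joined, the internal starts of the members fell at 28 places, and 14 of these were used in more than 1 list. The most widely shared was in the first exon of *CYP79F1*, 563 to 567 nt from the gene start, in all lists except *spt16-1* with 39 read pairs in total. In *TGG2* a start 1484 to 1490 nt from the gene start was used in all 4 lists from 22 °C, with 56 read pairs. It was listed in neither cold list, where *TGG2* had 162 and 84 read pairs, and a use below 3 read pairs would not be listed. Exon 7 begins at 1486 nt. Given the margin of listed ends, this start could not be placed in the exon or in the intron before it. In *TGG1* starts further inside exon 7 were joined into 1 place over 4 lists, with 18 read pairs. They lay 1546 and 1547 nt from the gene start in *ssrp1-2* and *spt16-1*. In *hen2-2* the start lay at 1528 nt, and at 1515 in the cold. The bases around these 3 places are shown with the 15 bases from the most used listed start onward in capitals.
CYP79F1, chr1:5609233-5609262, plus strand: cggagacaattacaaATCAATGGGAATTTC
TGG1, chr5:9080842-9080871, minus strand: agagagcaaagatgcAACTGAGCGGGCTAA
TGG2, chr5:9074181-9074210, plus strand: tatgtgaccacagtaCCAAGGAGGGAAGAT

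Exon 4 gave internal starts in both myrosinase genes. *TGG1* had one 11 nt after the first base of the exon in *ssrp1-2*, with 8 read pairs, and one 30 nt after it in *spt16-1*, with 6. *TGG2* had starts 9 to 12 nt after the first base in wild type, *hen2-2* and *ssrp1-2* at 22 °C, with 10 read pairs in total. The 30 bases around the place 11 nt into the exon agree at 28 positions, and again the capitals begin at the listed start.
TGG1, chr5:9081704-9081733, minus strand: gcagaaagatatagaCGTGATGGACGAGCT
TGG2, chr5:9073404-9073433, plus strand: gcagaaagatctagaCGTGATGGAAGAGCT
In exon 6 the genes had internal starts 239 nt (*TGG1*, 6 read pairs) and 240 nt (*TGG2*, 4 read pairs) after its first base, both in *ssrp1-2*. The method reads the 5′ ends of capped RNA, and whether these RNAs carry a cap of their own was not tested.

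**Figure D5:**
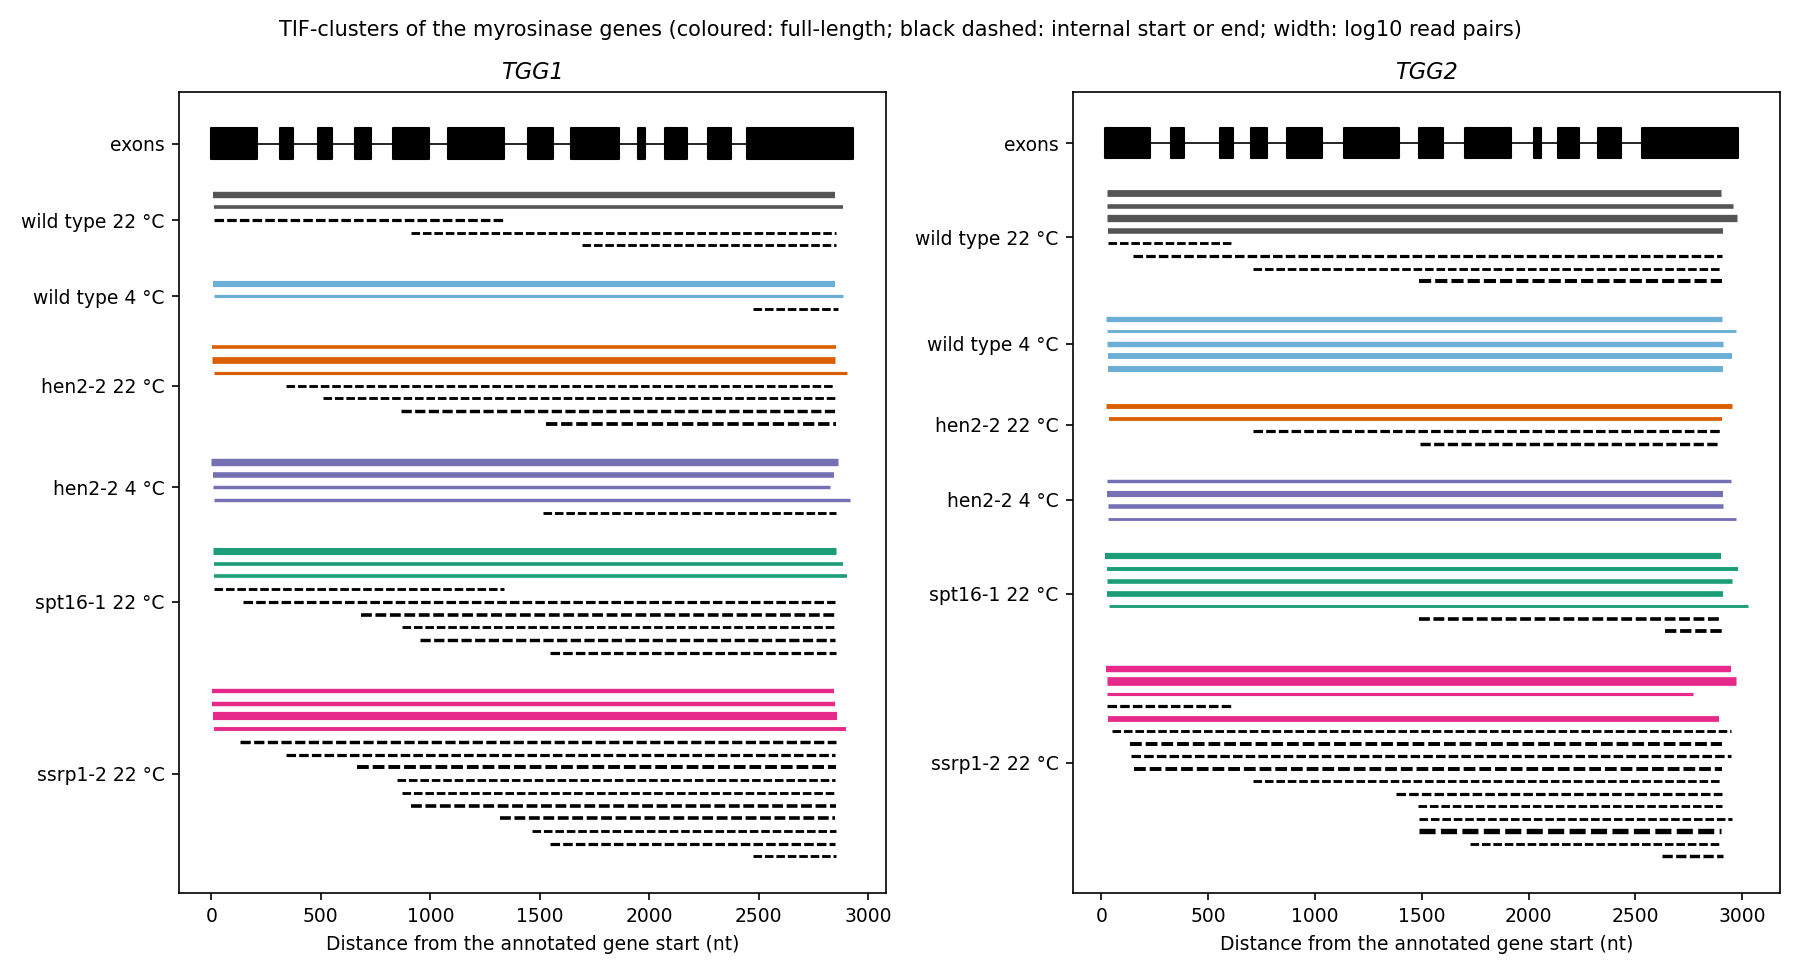
TIF-clusters of *TGG1* and *TGG2* in the 6 pooled lists, drawn as lines from listed start to listed end along the distance from the annotated gene start (nt, horizontal axis), under the exons of the first isoform. Coloured lines are full-length, black dashed lines have an internal start or end, and width grows with log10 read pairs; most dashed lines run to the usual 3′ end, and *ssrp1-2*, the list with the most read pairs for both genes, has the most of them.

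Early ends were rare, at 5 places over 5 members. *TGG1* had an end 1336 nt from the gene start, 1 nt past the end of exon 6, with 4 read pairs in wild type and 3 in *spt16-1*. *TGG2* had an end 608 nt from the gene start, 6 nt before the end of exon 3, with 3 read pairs in wild type and 4 in *ssrp1-2*. Both came from the usual TSS. The only short promoter-proximal TIF-cluster, taken as one under 350 nt that begins within 40 nt of the most used TSS and ends inside the coding sequence, was a cluster of 87 nt with 4 read pairs at *CYP83A1* in wild type. By this rule 1 of 7 members with at least 20 read pairs had one in wild type, against 3.76% of 4862 coding genes. In *hen2-2*, 0 of 8 members had one at 22 °C, against 21.8% of 4956 genes, and 0 of 7 at 4 °C, against 26.5% of 2863 genes. No antisense TIF-cluster overlapped any of the 10 members in any list. The share of all coding genes without one is not given here, so this cannot be called particular to the members.

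The wider pathway was read from a list of 56 other genes of glucosinolate synthesis, regulation, breakdown and transport, of which 46 had a TIF-cluster in at least 1 list, 31 in all 6, and 10 in none. In wild type at 4 °C, 5 of the 34 with enough read pairs were at least 2-fold higher and 2 lower, against 14.6% and 11.9% of all coding genes. In *hen2-2* at 4 °C the counts were 8 and 1 of 31, against 9.55% and 19.0% of all genes. For *hen2-2* against wild type they were 1 and 1 of 33 at 22 °C, against 12.8% and 9.08%, and 4 and 5 of 32 at 4 °C, against 8.36% and 17.7%. For *spt16-1* they were 2 and 2 of 33, against 14.1% and 8.28%, and for *ssrp1-2* 5 and 1 of 34, against 12.3% and 11.4%. The medians of their log2 ratios lay between -0.16 and 0.28.

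Of the 30 of these genes with enough read pairs in both cold comparisons, 4 were at least 2-fold higher in both, as were 3.96% of 5603 coding genes. *IPMDH1*, the dehydrogenase of methionine chain elongation, stood at 4.74 RPM at 22 °C and 110 at 4 °C in wild type, and at 16.4 and 139 in *hen2-2*. *GSTU20*, a glutathione transferase of the aliphatic core, stood at 16.6 and 76.8, and at 11.3 and 163. *GGP1*, which trims the glutathione conjugate, stood at 21.3 and 135, and at 37.8 and 85.2. *GTR1*, a glucosinolate transporter, stood at 62.9 and 171, and at 73.0 and 149. *MAM1*, which acts earlier in the same cycle as IPMDH1, was higher in the cold in wild type and lower in *hen2-2*, and *CYP83A1*, upstream of GSTU20, stayed within 2-fold in both. *FMOGS-OX4*, a side-chain oxygenase, was the 1 gene of 29 at least 2-fold higher in *hen2-2* at both temperatures (2.16% of 5332 coding genes were), at 39.0 RPM in each against 13.0 and 17.4 in wild type. Of the root myrosinases, *TGG4* ranged from no cluster to 28.5 RPM, and *TGG5* was listed in *spt16-1* only, at 17.3.

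The likeness of patterns was measured as the Euclidean distance between centred log2(RPM + 1) over the 6 lists, among 2414 genes with at least 20 read pairs in every list. The values were not scaled by their range. Genes with level patterns thus lie near each other, and a gene with a wide range lies far from most. The 3 genes nearest to *CYP83A1* were *SDH5* (0.120), AT5G10960 (0.132) and *OASB* (0.171), and those nearest to *CYP83B1* were *RD19* (0.217), *ARA-2* (0.221) and AT5G39530 (0.242). Those nearest to *BCAT4* were *RAN2* (0.496), *IAA9* (0.514) and AT5G41950 (0.532). *TGG2* had no near neighbour, the closest being *DHAR1* (1.93), AT3G30390 (2.23) and *SHM1* (2.33), and *TGG1* ranked 752 at 3.43. *CYP83B1* ranked 443 from *CYP83A1*, at a distance of 0.577, and *CYP83A1* ranked 210 from *CYP83B1*, so neither was among the near neighbours of the other.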

How the data were processed

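The authors deposited 1 list of TIF-clusters per group, and each value counts the read pairs of that cluster without normalization. Per the labels and the methods of the study, reads were trimmed with cutadapt, aligned to TAIR10 with STAR 2.6.1c, kept where the alignment was unique, and freed of PCR copies with UMI-tools. The 2 replicate libraries of each group were then pooled, read pairs were joined where both ends lay close together, clusters with internal priming or without support from TSS-seq were removed, and a minimum of 3 read pairs was set. The pooling hides the spread between replicates, and the minimum and the TSS-seq filter can remove weak starts. TSS-seq samples were not analysed here.

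From these counts, each cluster was assigned to the coding gene of largest overlap on its strand (RefSeq annotation of TAIR10.1, whose 5 chromosomes have the TAIR10 lengths, with Araport11 models). Levels are RPM (read pairs per 1000000 in the list), with exact Poisson intervals, shares have exact binomial (Clopper-Pearson) intervals, and ratios have exact conditional binomial intervals, all at 95%. Log2 ratios used a pseudocount of 0.5 read pairs, and called means at least 2-fold among genes with at least 20 read pairs in the pair of lists. Intervals cover counting error only. Scripts ran in Python 3.11.15 with scipy 1.17.1 and numpy 2.4.6, figures used matplotlib 3.10.9, and class assignment and interval coverage were tested on simulated data. Alternatives were another scaling, cluster and gene minimums, pseudocount, fold, class rules, and clusters touching 1 gene.

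The members and lists of genes were chosen with earlier results of these data known. All 10 members are named. Other pathway genes are named where at least 2-fold in the same direction in both cold or both *hen2-2* comparisons, or as closest copies of a member. Likeness was computed for the member with the most read pairs in each of 4 roles.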

Additional observations from a re-analysis of the deposited data

Results flagged for a closer look

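For 3 of the 8 members compared, the cold ratio pointed in opposite directions in wild type and *hen2-2*, with both counting intervals excluding no change. The share of all coding genes that did so is not given here, so this count cannot be called unusual. *TGG2* had a log2 ratio of -0.86 in wild type and 2.16 in *hen2-2*. *MAM1* had 2.08 and -2.47, and *BCAT4* had 0.40 and -1.16. With lists scaled by the median ratio, the ratio of *BCAT4* in wild type was 0.30 (-0.06 to 0.67), an interval that includes no change. Each arm is 1 pooled list, so the difference between the genotypes was not tested. The *hen2-2* ratio of *MAM1* rests on the cluster of 204 read pairs at 22 °C and was -0.87 without the largest cluster of each list. For *TGG2* and *BCAT4* the same removal gave -0.43 and 1.75 in wild type and 1.40 and -2.57 in *hen2-2*, with the directions as before.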

How the results depend on the processing

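No paired analysis was possible because the replicate libraries are pooled in each list, and for the same reason no replicate could be left out. Counts of members past 2-fold moved with the setting, and the moves listed here are not all of them. With whole-ORF clusters only the counts were 0 against 1 for cold in wild type, 3 against 5 for cold in *hen2-2*, 1 against 2 for *hen2-2* at 4 °C, 1 against 3 for *spt16-1* and 3 against 5 for *ssrp1-2*. *MAM1* and *CYP79B2* have no whole-ORF cluster and drop out of these counts, as does *TGG2* in *ssrp1-2*. The counts for cold in *hen2-2* and for *spt16-1* include *TGG2*, whose ratio reversed, as given below. At a fold of 1.5 the counts were 4 for cold in wild type, 5 for *hen2-2* at 22 °C and 5 for *spt16-1*. With a gene minimum of 100 read pairs they were 0 for cold in wild type and 1 for *hen2-2* at 4 °C. In *ssrp1-2*, *CYP83B1* at 1.52-fold was also past a fold of 1.5. With median scaling, *BCAT4* in *hen2-2* at 22 °C came within 2-fold, at a log2 ratio of 0.96. Of 316 log2 ratios of single members under the settings listed at the start, 313 stayed within their counting intervals and 3 reversed, all of them *TGG2* with whole-ORF clusters only, at -4.41 for cold in *hen2-2*, 5.44 for *hen2-2* at 22 °C and 6.94 for *spt16-1*. That setting keeps only the 2 *TGG2* clusters that reach the outer coding limits. Member and list pairs with at least 50% of read pairs in whole-ORF clusters numbered 33 of 50, and 50 with the first isoform and a tolerance of 20 nt (a rule added once the data had been seen). The 154 whole-ORF clusters became 60 when clusters with both ends within 50 nt were merged. Leaving out the largest cluster of a member in each list, also added after seeing the data, gave 42 ratios, and of the 13 past 2-fold among them 10 stayed so, 3 did not and 0 reversed, while 11 of the 29 others passed 2-fold. The ratios of *MAM1* and *CYP79B2* that this removal could not give were all past 2-fold. Scaling by the median ratio moved comparisons by at most 0.10 on the log2 scale. Levels under about 20 read pairs are limited by depth.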
